A study of Mus musculus with 8 samples.

Results

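Transcripts of 10 genes that carry the insulin-like growth factor (IGF) and insulin signal were compared in the cardiac ventricles of tumor-bearing and control male mice. The genes were chosen by name from the 43346 genes of the deposited count table: the growth factor Igf1, the receptors Igf1r and Insr, the adaptors Irs1 and Irs2, and the binding proteins Igfbp3, Igfbp4, Igfbp5, Igfbp6 and Igfbp7. Each of the 10 is 1 row of the table, and all 10 were among the 16111 genes with enough counts to be tested. The mice were male C57BL/6 animals that received a subcutaneous flank injection at 7 weeks of age, 4 of them with 1000000 LLC1 cells, a Lewis lung carcinoma line from the same mouse strain, and 4 with PBS vehicle alone. Ventricles were taken 14 days later, no engineered allele is named for any mouse, and every tumor came from the same cell line. The study set the groups side by side to ask which cardiac transcripts change in tumor-bearing mice.

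IGF-1 and insulin bind related receptor tyrosine kinases, IGF1R and INSR, which phosphorylate the adaptors IRS1 and IRS2 and so recruit phosphoinositide 3-kinase (PI3K) and activate AKT. In the heart this pathway drives glucose uptake and protein synthesis, and AKT holds the FOXO transcription factors out of the nucleus, where they would induce genes of protein breakdown. IGF-binding proteins hold IGFs in the blood and tissue, and proteases such as PAPPA release them.

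Igf1 was lower in all 4 tumor-bearing mice than in any control, at 0.611 times the control level. Igfbp7 also fell, to 0.762 times the control level, while Igfbp3 rose 1.43-fold, with groups that overlapped and a call that was lost in 6 of the 8 fits that left out 1 mouse. The receptors, the adaptors and the other binding proteins did not pass the test. Of the 10 genes, 3 (1 higher and 2 lower) were called, that is, edgeR's quasi-likelihood test gave them a false discovery rate (FDR, Benjamini-Hochberg) under 0.05, beside 8.73% of all genes tested (4.12% higher and 4.61% lower). The 10 log2 fold changes, always given as LLC1 over PBS, had a median of 0.15, beside -0.01 over all genes tested, and 8 of the 10 were above 0. For 2 of the 10 genes, both lower in LLC1 mice, the groups were fully apart, beside 17.2% of all genes tested (8.89% higher and 8.27% lower).

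Libraries held 15342214 to 19747596 counts on genes in the LLC1 mice and 12480706 to 16192158 in the PBS mice. Mice are named by their injection and the code in their labels, such as PBS 1-1, and levels are counts per 1000000 after TMM scaling (CPM). PBS 1-1 stood apart from the other controls: it lay far from its group in 506 genes (3.14% of those tested), against 0.745% to 1.74% for each other mouse, and at 35.3 on the second principal component, where the other mice lay between -23.3 and 8.71. Without it, 11.9% of the genes tested were called (5.56% higher and 6.38% lower), as were 4 of the 10 members (2 higher and 2 lower), and members whose call or sign changes without it are given both ways. With libraries scaled to total counts only, 225 genes were called higher and 793 lower, in place of 663 and 743, with the median of all genes 0.05 lower on the log2 scale. Heart muscle markers were abundant in every library, with 7 cardiomyocyte genes summing to 83945 CPM or more.

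**Figure D1:**
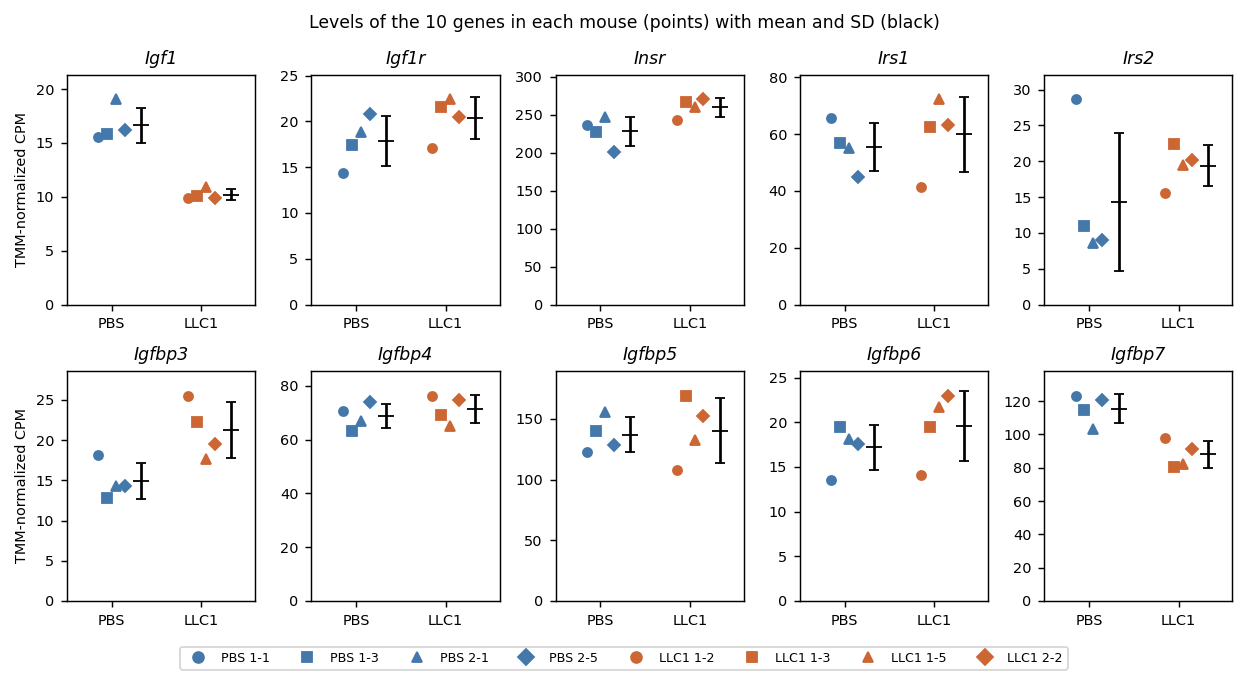
TMM-normalized CPM (vertical axes, from 0, a scale for each gene) of the 10 genes in the 4 PBS mice (blue) and the 4 LLC1 mice (orange); each point is 1 mouse, and the black bars are the group mean ± SD. The groups are apart for Igf1 and Igfbp7, and for Irs2 the mouse PBS 1-1 lies at 28.7 CPM, far above the other 3 controls.

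Irs1 and Irs2 were the only members with a match to the core of the insulin response element in the RefSeq promoter table (build GRCm38.p6, 250 bases before to 50 after the transcription start), and the level of Irs2 in PBS 1-1 was far from the other controls. Their promoters are shown for that reason, each on the minus strand of its chromosome and read 5′ to 3′, with the core (CAAAACA, here read as TGTTTTG on the gene's strand) in capitals:
Irs1 promoter, chr1:82291390-82291689: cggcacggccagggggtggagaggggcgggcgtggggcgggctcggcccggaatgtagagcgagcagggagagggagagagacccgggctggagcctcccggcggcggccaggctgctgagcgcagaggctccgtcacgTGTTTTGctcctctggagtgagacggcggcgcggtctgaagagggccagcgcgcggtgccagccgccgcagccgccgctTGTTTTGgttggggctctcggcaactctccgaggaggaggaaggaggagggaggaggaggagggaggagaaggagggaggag
Irs2 promoter, chr8:11008880-11009179: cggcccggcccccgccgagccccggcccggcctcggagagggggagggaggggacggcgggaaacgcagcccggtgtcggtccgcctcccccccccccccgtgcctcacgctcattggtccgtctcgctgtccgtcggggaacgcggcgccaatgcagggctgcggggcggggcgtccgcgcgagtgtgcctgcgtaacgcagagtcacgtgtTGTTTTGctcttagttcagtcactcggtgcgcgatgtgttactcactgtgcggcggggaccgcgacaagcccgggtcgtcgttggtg
The Irs1 window held 2 matches, at positions 140 and 219 counted from its 5′ end, and the Irs2 window held 1, at position 214. All 10 genes matched 1 promoter each, and 6.28% of the 32851 promoters in the table held CAAAACA on either strand. Neither the FOXO element GTAAACA (3.65% of all promoters) nor the STAT element TTCNNNGAA (8.30%) was in any of the 10 windows, searched on both strands. The Igf1 window is set on a start at 87861111, inside the gene, which begins at 87858265. Bases before that first position were not searched for Igf1. The GC box GGGCGG, in 35.7% of all promoters, was in the windows of Igf1r, Igfbp7, Irs1 and Irs2. These matches describe letters in the windows, and binding was not measured.

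Igf1 (ENSMUSG00000020053, mm10 chromosome 10, 87858265 to 87937042, plus strand) encodes the growth factor that the heart makes locally beside the circulating supply from the liver. It stood at 9.86, 10.1, 10.9 and 9.91 CPM in the LLC1 mice 1-2, 1-3, 1-5 and 2-2, and at 15.5, 15.8, 19.1 and 16.2 CPM in the PBS mice 1-1, 1-3, 2-1 and 2-5. The highest tumor-bearing mouse lay well below the lowest control, and the LLC1 mice were close together. The means were 10.2 ± 0.505 CPM in LLC1 mice and 16.7 ± 1.63 CPM in PBS mice (SD, n = 4 each). The log2 fold change was -0.71 (SE 0.0936, 95% interval -0.91 to -0.51, FDR = 0.0015 in edgeR's quasi-likelihood test). The exact 2-sided permutation test, with 70 ways to split the mice, gave p = 0.0286, the smallest that 4 against 4 allows. These values rest on 149 to 324 counts per library. The call held in each of the 8 fits that left out 1 mouse, with log2 fold changes of -0.75 to -0.64, and in the 8 fits with another scaling, filter, tool or covariate.

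The fall of Igf1 came beside lower levels of several stromal and endothelial markers. The 7 fibroblast markers summed to 960.4 to 1072 CPM in LLC1 mice and 1068 to 1552 CPM in PBS mice, with Col1a1, Col1a2, Col3a1 and Lum called lower by the edgeR test and Pdgfra, Dcn and Tcf21 not called. The 6 endothelial markers summed to 768 to 897 CPM against 892 to 1174 CPM, with 2 of 6 lower (Kdr and Emcn). The 7 macrophage markers summed to 195 to 247 CPM against 201 to 301 CPM, with 1 of 7 lower (Mrc1). In the fibroblast, endothelial and macrophage sums PBS 1-1 was the lowest control, and the only one within the range of the LLC1 mice. Markers of dividing cells were lower for 4 of the 4 tested, with sums of 2.30 to 4.81 CPM against 14.2 to 44.7 CPM. The 7 cardiomyocyte markers summed to 93529 to 99720 CPM against 83945 to 86450 CPM, with 1 of 7 higher (Myh6). No marker of these lists was at 0 in every mouse, their part in the changes of Igf1, Igfbp3 and Igfbp7 was not tested, and in whole ventricles fewer cells of a type and less RNA per cell cannot be told apart. The smooth muscle and pericyte sums were 756 to 818 CPM against 868 to 1028 CPM, with 0 of 6 markers called, and the erythroid sums were 1428 to 5180 CPM against 1556 to 3097 CPM, with 0 of 5. Mesothelial markers summed to 6.81 to 53.3 CPM against 13.1 to 36.4 CPM, with 0 of 4 called. Atrial markers summed to 2.02 to 3.42 CPM against 2.54 to 4.41 CPM, with 0 of the 2 tested called, and the 4 adipocyte markers, at under 1 CPM in every mouse, were too low to test.

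Igf1r (ENSMUSG00000005533, chromosome 7, 67952859 to 68226780, plus strand), the receptor for IGF-1, did not pass the test. Its levels were 17.1, 21.5, 22.4 and 20.5 CPM in the LLC1 mice 1-2, 1-3, 1-5 and 2-2, and 14.3, 17.4, 18.8 and 20.8 CPM in the PBS mice 1-1, 1-3, 2-1 and 2-5. The ranges overlapped, and the log2 fold change of 0.19 (SE 0.119, FDR = 0.351 in edgeR's quasi-likelihood test) had a 95% interval of -0.07 to 0.45. Without PBS 1-1 it was 0.10 (FDR = 0.567 in the same edgeR test).

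Insr (ENSMUSG00000005534, chromosome 8, 3150922 to 3279617, minus strand), the insulin receptor, was at 243, 267, 260.2 and 271 CPM in the LLC1 mice and at 237, 227, 247 and 202 CPM in the PBS mice, in the same order. Only the highest control (PBS 2-1) reached above the lowest LLC1 mouse (1-2). Its log2 fold change of 0.19 (SE 0.0725, 95% interval 0.03 to 0.35) had an unadjusted p of 0.0223 and an FDR of 0.126 in edgeR's quasi-likelihood test. With offsets that remove each library's trend with gene length, the log2 fold change was 0.26 and the FDR 0.0350 in the same edgeR test. This was the only 1 of 8 alternative fits to call Insr, and with total counts only the values were 0.14 and 0.317 (same edgeR test). None of the 8 fits that left out 1 mouse called it (FDR 0.0907 to 0.257, same edgeR test).

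Because a ratio of counts within a mouse does not depend on library scaling, the ligand and the receptors were also set against each other. Igf1 had 0.576, 0.469, 0.488 and 0.483 counts for each Igf1r count in the LLC1 mice 1-2, 1-3, 1-5 and 2-2, and 1.08, 0.911, 1.01 and 0.779 in the PBS mice 1-1, 1-3, 2-1 and 2-5. The groups did not overlap, and the ratio was 0.535 times as high in LLC1 mice, a log2 difference of -0.90. The exact permutation test gave a 2-sided p of 0.0286, the smallest possible, and 0.0857 after Benjamini-Hochberg adjustment over the 3 ratios tested. The ratio of Insr to Igf1r counts was 11.6 to 14.1 in LLC1 mice and 9.66 to 16.5 in PBS mice. Its log2 difference of -0.01 had an exact permutation p of 1 (also 1 after adjustment), and its sign turned with a larger pseudocount and without some mice (0.11 without PBS 1-1).

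**Figure D2:**
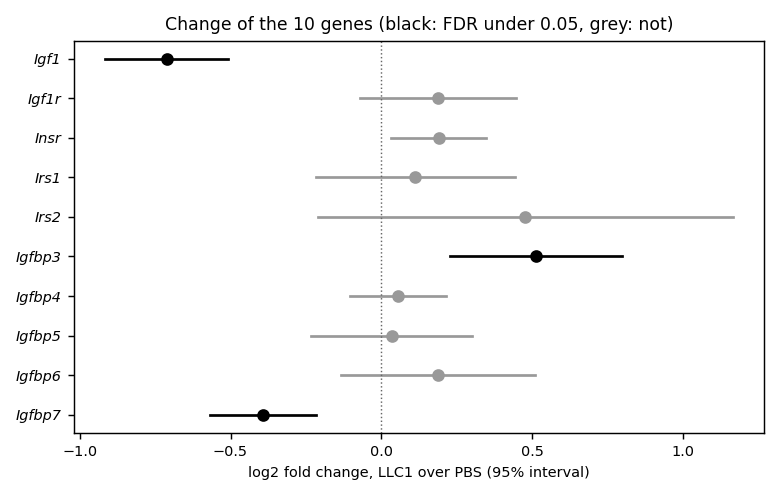
Log2 fold change, LLC1 over PBS (horizontal axis), of each gene with its 95% interval (bars) from edgeR's quasi-likelihood fit of 4 against 4 mice; black marks an FDR under 0.05. Igf1 and Igfbp7 lie to the left of 0 and Igfbp3 to the right, and Irs2 has the longest interval (-0.21 to 1.17).

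Irs1 (ENSMUSG00000055980, chromosome 1, 82233101 to 82291416, minus strand), a main adaptor of both receptors in muscle, did not pass the test. It was at 41.5, 62.5, 72.3 and 63.3 CPM in the LLC1 mice and at 65.6, 56.7, 55.1 and 45.0 CPM in the PBS mice, in the order of codes above. The lowest and the highest of the 8 values were both from LLC1 mice. The log2 fold change was 0.11 (SE 0.151, 95% interval -0.22 to 0.44, FDR = 0.683 in edgeR's quasi-likelihood test), or 0.20 without PBS 1-1. Irs1 shares 2822 exon bases (30.9% of its own) with the predicted gene Gm9747 on the other strand. Those bases are the whole length of Gm9747, which had a log2 fold change of 0.06 (FDR = 0.817 in the same edgeR test). Use of strand in the counting is not given in the sources used here, so the counts of both genes may not be separate.

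Irs2 (ENSMUSG00000038894, chromosome 8, 10986980 to 11008458, minus strand) encodes the adaptor whose transcription insulin is known to hold down in liver. Its levels were 15.5, 22.4, 19.5 and 20.1 CPM in the LLC1 mice 1-2, 1-3, 1-5 and 2-2. In the PBS mice 1-1, 1-3, 2-1 and 2-5 they were 28.7, 10.9, 8.59 and 9.03 CPM. All 4 LLC1 mice were above the controls 1-3, 2-1 and 2-5, and all 4 were below PBS 1-1. With all 8 mice the log2 fold change was 0.48 (SE 0.316, 95% interval -0.21 to 1.17, FDR = 0.373 in edgeR's quasi-likelihood test). Without PBS 1-1 it was 1.03 (SE 0.130, 95% interval 0.75 to 1.32, FDR = 0.0005 in the same edgeR test), and none of the other 7 fits that left out 1 mouse called it. An overlapping gene on the other strand, 9530052E02Rik, shares 162 exon bases (2.56%) with Irs2 and had a log2 fold change of -0.13 (FDR = 0.898 in the same edgeR test).

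The balance of the adaptors followed the same mouse. Irs2 had 0.375, 0.359, 0.270 and 0.318 counts for each Irs1 count in the LLC1 mice, and 0.437, 0.193, 0.156 and 0.201 in the PBS mice, in the same order. The log2 ratio was -1.61 ± 0.21 in LLC1 mice and -2.14 ± 0.65 in PBS mice (SD, n = 4 each), a difference of 0.53 with an exact 2-sided permutation p of 0.171 (0.257 adjusted over the 3 ratios). Without PBS 1-1 the difference was 0.85, with an unadjusted exact permutation p of 0.0286, the smallest that 4 against 3 allows. PBS 1-1 was the only control whose ratio was not below every LLC1 mouse, so leaving it out fixed this p at its smallest.

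Igfbp3 (ENSMUSG00000020427, chromosome 11, 7206086 to 7213923, minus strand), the main carrier of IGFs in blood, rose. It stood at 25.5, 22.3, 17.6 and 19.5 CPM in the LLC1 mice 1-2, 1-3, 1-5 and 2-2, and at 18.1, 12.8, 14.3 and 14.3 CPM in the PBS mice 1-1, 1-3, 2-1 and 2-5. The groups touched, since LLC1 1-5 lay just below PBS 1-1. The means were 21.2 ± 3.44 and 14.9 ± 2.25 CPM (SD, n = 4 each), and the log2 fold change was 0.51 (SE 0.131, 95% interval 0.23 to 0.80, FDR = 0.0319 in edgeR's quasi-likelihood test). The exact permutation p was 0.0571. The call held under the 8 other scalings, filters, tools and covariates but was lost in 6 of the 8 fits that left out 1 mouse. The FDR in those edgeR fits was 0.0863 without LLC1 1-2, 0.0900 without LLC1 1-3, 0.0528 without LLC1 2-2, 0.105 without PBS 1-3, 0.0772 without PBS 2-1 and 0.0530 without PBS 2-5. It was 0.0069 without PBS 1-1, where the log2 fold change was 0.61.

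Igfbp7 (ENSMUSG00000036256, chromosome 5, 77349240 to 77408045, minus strand), a secreted protein of vessels and matrix that binds IGFs with low affinity, fell. Its levels were 97.8, 80.1, 82.5 and 91.3 CPM in the LLC1 mice and 123, 115, 103 and 120.4 CPM in the PBS mice, in the same order. Every tumor-bearing mouse was below every control, with LLC1 1-2 nearest to PBS 2-1. The means were 87.9 ± 8.16 and 115 ± 8.84 CPM (SD, n = 4 each), and the log2 fold change was -0.39 (SE 0.0805, 95% interval -0.57 to -0.22, FDR = 0.0136 in edgeR's quasi-likelihood test). The exact permutation p was 0.0286. Only without LLC1 1-3 did the FDR pass 0.05 (0.0512, log2 fold change -0.35, same edgeR test). Igfbp7 shares 85 exon bases (7.03%) with Polr2b on the other strand, which had a log2 fold change of -0.02 (FDR = 0.820 in the same edgeR test).

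Igfbp4, Igfbp5 and Igfbp6 did not pass the test. Igfbp4 (ENSMUSG00000017493, chromosome 11, 99041244 to 99054392, plus strand), which blocks IGF action until PAPPA cleaves it, was at 76.4, 69.3, 65.3 and 74.9 CPM in LLC1 mice and 70.6, 63.4, 67.1 and 74.0 CPM in PBS mice. The ranges nearly coincided, with a log2 fold change of 0.06 (SE 0.0726, 95% interval -0.10 to 0.21, FDR = 0.675 in edgeR's quasi-likelihood test). Igfbp5 (ENSMUSG00000026185, chromosome 1, 72857932 to 72874884, minus strand), a matrix-bound form, was at 108, 169, 133 and 152 CPM in LLC1 mice and 123, 140.5, 156 and 129 CPM in PBS mice. The LLC1 mice held both the lowest and the highest value, and the log2 fold change was 0.03 (SE 0.123, 95% interval -0.23 to 0.30, FDR = 0.894 in the same edgeR test), or -0.020 with libraries scaled to total counts only and -0.013 without PBS 1-1. Igfbp6 (ENSMUSG00000023046, chromosome 15, 102144362 to 102149511, plus strand), which prefers IGF-2, was at 14.2, 19.4, 21.7 and 23.0 CPM in LLC1 mice and 13.6, 19.4, 18.2 and 17.6 CPM in PBS mice. The groups overlapped, with LLC1 1-2 and PBS 1-1 the lowest, and the log2 fold change was 0.19 (SE 0.148, 95% interval -0.13 to 0.51, FDR = 0.461 in the same edgeR test), or 0.098 without PBS 1-1.

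**Figure D3:**
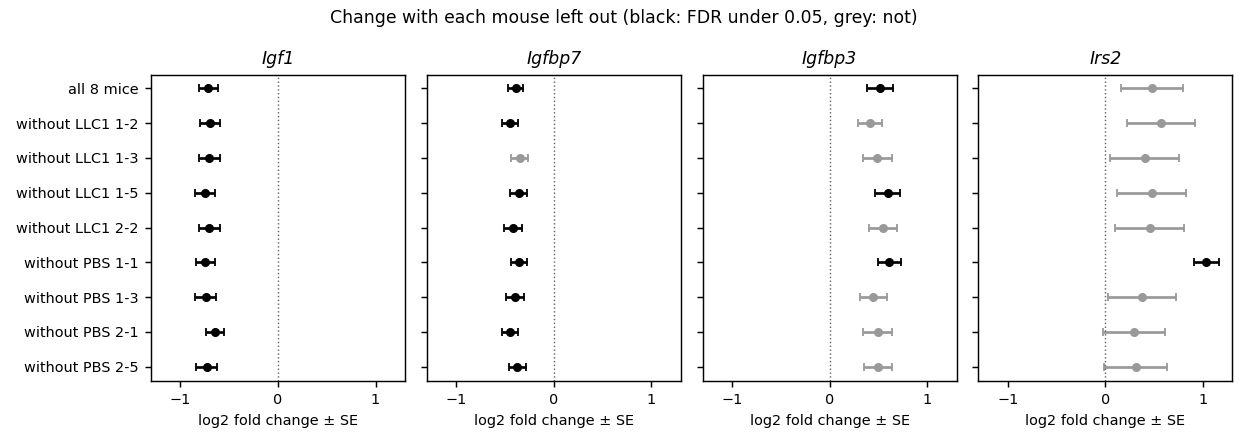
Log2 fold change ± SE, LLC1 over PBS (horizontal axes), of 4 genes with all 8 mice and with each mouse left out in turn (rows), from edgeR's quasi-likelihood fit; black marks an FDR under 0.05. Igf1 is black in every row, Igfbp7 in all rows but the one without LLC1 1-3, and Irs2 is black, at 1.03, only in the row without PBS 1-1.

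For a comparison of levels between genes, CPM were divided by the gene length in kilobases that the deposited table gives. In the PBS mice Igfbp7 was the most abundant of the 10, at 95.1 ± 7.28 CPM per kilobase, and Igf1 the least, at 1.68 ± 0.164 CPM per kilobase (SD, n = 4). Insr and Igfbp5 followed Igfbp7 at 23.7 and 22.8 CPM per kilobase and overlapped each other. Igfbp4 and Igfbp6 came next at 15.6 and 15.5 CPM per kilobase, also overlapping. Irs1, Igfbp3, Igf1r and Irs2 formed a lower tier, at means of 6.08, 4.76, 3.98 and 3.55 CPM per kilobase, in which each overlapped its neighbor. The ranges of the mice were separate between these tiers.

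The LLC1 mice kept Igfbp7 at the top, at 72.5 ± 6.73 CPM per kilobase, and Igf1 at the bottom, at 1.03 ± 0.0510 CPM per kilobase (SD, n = 4). Insr (27.0), Igfbp5 (23.4), Igfbp6 (17.6) and Igfbp4 (16.2) followed Igfbp7 in CPM per kilobase, each overlapping the next. Igfbp3 (6.78), Irs1 (6.55), Irs2 (4.82) and Igf1r (4.55 CPM per kilobase) likewise overlapped their neighbors, and the ranges were separate between these tiers. The transcripts of the receptor Insr thus lay above those of Igf1r in every mouse on this scale. The deposited lengths of Igf1r (4489 bases), Insr (9633) and Irs2 (4024) are shorter than their exon bases in GENCODE M21 (16791, 13746 and 6323). The places of these 3 genes, and the last place of Igf1 below Igf1r, thus depend on the annotation the counts were made with.

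The 5 binding proteins added up to 130.02 to 144.5 CPM per kilobase in LLC1 mice (mean 136) and 147 to 158 CPM per kilobase in PBS mice (mean 154). Igfbp7 made up 49.1% to 59.0% of that sum in LLC1 mice and 57.8% to 65.1% in PBS mice. Igfbp3 made up 4.32% to 5.96% against 2.67% to 3.71%, and Igfbp4 11.4% to 12.7% against 9.33% to 10.6%, neither with any overlap between the groups. The level of Igfbp4 itself did not pass the test, and a share also moves with the other parts of the sum, of which Igfbp7 is the largest. These shares describe the same counts again and carry no test of their own.

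**Figure D4:**
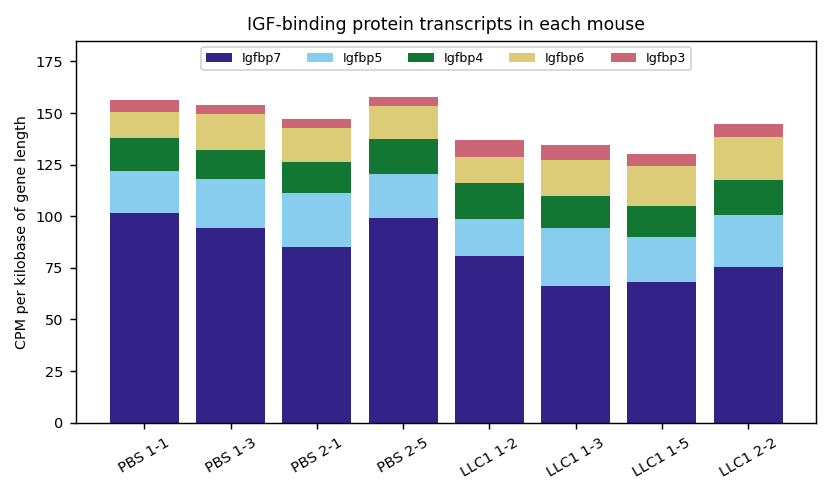
Stacked CPM per kilobase of gene length (vertical axis, from 0) of the 5 binding proteins in each mouse, PBS mice on the left and LLC1 mice on the right; each color is 1 gene. The Igfbp7 segment at the base is shorter in the 4 LLC1 mice, and the whole bars reach 144.5 CPM per kilobase at most there against 147 or more in the PBS mice.

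The other genes of the pathway were described from 6 lists of 72 genes, of which 62 were tested. Of the 62, 3 were called higher and 5 lower by the edgeR test, which is 12.9% beside 8.73% of all genes tested. Their median log2 fold change was -0.01, equal at this precision to that of all genes.

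Outside the 10 members, none of the 4 tested genes among the ligands and other genes of IGF binding was called, beside 8.73% of all genes tested. Igf2, the fetal growth factor, was at 16.3 to 25.3 CPM in LLC1 mice and 22.9 to 31.8 CPM in PBS mice (log2 fold change -0.33, FDR = 0.183 in edgeR's quasi-likelihood test). The largest difference of that list, for the endocytic receptor Lrp2, was 0.52 on the log2 scale (FDR = 0.399 in the same edgeR test), on 12 to 60 counts per library. Ins1, Ins2 and Igfbp1 had no count in any mouse, which allows up to 0.152 to 0.240 CPM per library (3 counts, counting error only), and Igfbp2, Igfbpl1 and Insrr had too few counts to test. Among the proteases that free IGFs and their inhibitors, 0 of 4 were called, beside the same 8.73%. The serine protease Htra1, the one with the largest difference, was lower in every LLC1 mouse (67.6 to 73.5 CPM) than in any PBS mouse (77.6 to 83.5 CPM), at a log2 fold change of -0.20 and an FDR of 0.0589 in the same edgeR test. With gene length offsets that edgeR test gave Htra1 an FDR of 0.0495, and DESeq2 gave 0.0352. Those were 2 of 8 alternative fits, among which the FDR reached 0.160 (all genes with at least 1 count, edgeR's quasi-likelihood test). None of the 8 fits that left out 1 mouse called Htra1 (FDR 0.0510 to 0.158 in the same edgeR test). Pappa2 and Adam28 were too low to test. In the growth hormone axis, which controls Igf1 transcription in liver, 0 of 7 were called, beside the same 8.73%. With so few genes, the absence of calls does not set any of these lists apart from all genes. The median log2 fold change of the 7 genes of the growth hormone axis was -0.0019 and the largest was 0.21 for the STAT5 target Cish (FDR = 0.345 in the same edgeR test).

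Of the 18 adaptors and inhibitors tested, 1 was called (5.56%, beside 8.73% of all genes tested), and Irs4 and Socs1 were too low to test. The called gene was Dok4, an adaptor of the insulin receptor. It was at 19.9, 16.7, 19.1 and 16.6 CPM in LLC1 mice and 28.4, 27.4, 27.7 and 32.5 CPM in PBS mice, with no overlap. The log2 fold change of -0.68 (SE 0.0901, FDR = 0.0015 in edgeR's quasi-likelihood test) was close in size to that of Igf1, and the call held in all 8 fits that left out 1 mouse.

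Of the 13 genes of PI3K and its phosphatases, 2 rose and 2 fell (30.8% called, beside 8.73% of all genes tested), of which Pik3cg and Pik3r1 each lost the call in 6 of the 8 fits that left out 1 mouse. Pik3r1, the main regulatory subunit, was at 193 to 209.6 CPM in LLC1 mice and 143 to 190.1 CPM in PBS mice (log2 fold change 0.32, FDR = 0.0400 in edgeR's quasi-likelihood test). Pik3r3, another regulatory subunit, fell by 0.43 on the log2 scale (FDR = 0.0105 in the same edgeR test), from a mean of 15.3 to 11.3 CPM. Pik3cg, a catalytic subunit best known from immune cells, was at 1.71 to 2.57 CPM against 2.75 to 4.31 CPM (log2 fold change -0.81, FDR = 0.0302 in the same edgeR test), on 26 to 73 counts per library. Inpp5k, a phosphatase that removes the PI3K product, had means of 50.7 and 41.1 CPM (log2 fold change 0.30, FDR = 0.0187 in the same edgeR test). Pik3r1, Pik3r3 and Pik3cg stand in a table of transcripts that the study chose on these samples, so their direction is not independent evidence.

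Of the 16 genes of AKT, its kinases, phosphatases and targets, 1 rose and 2 fell (18.8% called, beside the same 8.73%). Foxo3, a transcription factor that AKT inhibits, was at 126, 134, 135 and 157 CPM in LLC1 mice and 93.3, 91.2, 97.3 and 111 CPM in PBS mice, without overlap (log2 fold change 0.49, SE 0.0837, FDR = 0.0061 in edgeR's quasi-likelihood test). Pde3b, a phosphodiesterase that AKT activates, was at 2.87 to 4.43 CPM against 4.36 to 7.15 CPM, with an overlap (log2 fold change -0.68, FDR = 0.0376 in the same edgeR test). Its call was lost in 5 of the 8 fits that left out 1 mouse and with gene length offsets (FDR = 0.0548 in the same edgeR test).

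**Figure D5:**
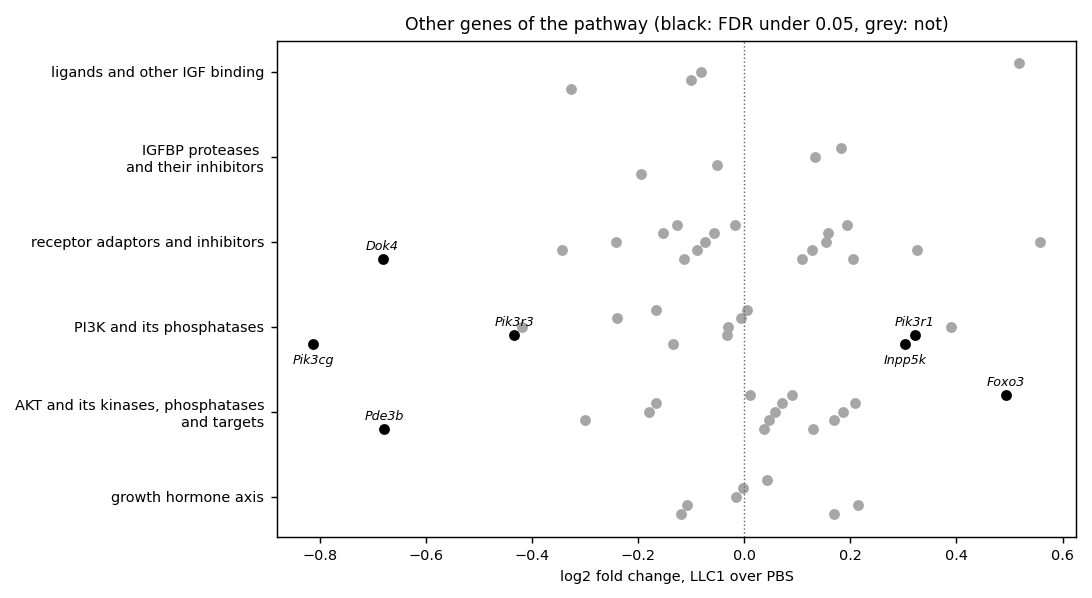
Log2 fold change, LLC1 over PBS (horizontal axis), of the tested genes of the 6 pathway lists whose values are given here (rows); each point is 1 gene, spread vertically within its row only for legibility, and black points with names were called by the edgeR test. The growth hormone and protease rows hold grey points alone, and the named points lie on both sides of 0.

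Without PBS 1-1, 9 of the other pathway genes were called in place of 8, with the phosphatase Inpp5d added (named after its values were seen). Of all genes tested, 11.9% were called in that fit, in place of 8.73%. Foxo3 and Pik3r3, like Dok4, kept an FDR under 0.05 in all 8 edgeR fits that left out 1 mouse. Inpp5k lost it without LLC1 1-2 (0.0563), LLC1 2-2 (0.0605) or PBS 1-3 (0.0744), in the same edgeR test. Pik3cg kept it only without LLC1 2-2 or PBS 1-1, and its FDR in the other 6 fits was 0.0592 to 0.0916. Pde3b kept it only without LLC1 1-5, PBS 1-1 or PBS 2-1 (other 5 fits 0.0530 to 0.115), and Pik3r1 only without PBS 1-1 or PBS 2-5 (other 6 fits 0.0694 to 0.109).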

How the data were processed

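RNA sequencing of ventricles from 4 LLC1-injected and 4 PBS-injected mice was used. The authors deposited raw read counts per gene, not normalized, made from TruSeq libraries (paired reads of 150 bases, genome mm10); the submitters' processing notes name CASAVA, STAR and featureCounts. Annotation, strand setting and filters are not given in the sources used here. Groups were taken from the stated treatment; nothing pairs the mice.

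Counts were fitted with edgeR 4.0.16 in R 4.3.3 (filterByExpr, TMM, quasi-likelihood F-test). P-values were adjusted by Benjamini-Hochberg over 16111 genes, and an FDR under 0.05 was a call. The SE was the absolute log2 fold change over the square root of F. Ratios used counts plus 0.5 and exact permutation tests. Alternatives were upper-quartile or total-count scaling, all genes with at least 1 count, DESeq2 1.42.0, limma-voom 3.58.1, the edgeR likelihood ratio test, the leading number of the mouse code as covariate, gene length offsets (loess span 0.3), a pseudocount of 5 and each mouse left out. BLAST 2.17.0 was used to find near-identical transcripts, and promoters came from RefSeq (GRCm38.p6).

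The members, lists and tests were chosen with earlier results of these data known. The genes named are the 10 members and, of the 6 lists, those called, those not tested and the gene with the largest absolute log2 fold change in each, of which 1 called gene is not reported here though the counts include it; Igf2 and the markers were named after their values were seen.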

Additional observations from a re-analysis of the deposited data

Results flagged for a closer look

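The level of Irs2 in PBS 1-1, 28.7 CPM, lay far above the other 3 PBS mice (8.59 to 10.9 CPM): its gap to the nearest of them was 0.883 of the group's whole range, above the 95% critical value of Dixon's test. Chance gives such a gap in about 1 in 20 groups, and of the 48 groups of 4 mice examined (the members, the named tested genes of the lists and the 3 ratios, each in LLC1 and in PBS mice) this was the 1 found. In the same mouse 506 of all genes tested (3.14%) also had a gap to the other controls above that critical value. The part of this mouse's library in the Irs2 values was not tested.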

How the results depend on the processing

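No paired analysis was possible because the groups share only 1 mouse code (1-3), carried by different animals. With all mice, the 3 calls among the members held in the 8 alternative fits. Leaving out 1 mouse at a time, 1 to 4 members and 4 to 9 of the other pathway genes were called, fewest members without LLC1 1-3 (Igf1 alone) and most without PBS 1-1, which added Irs2, and 542 (without PBS 1-3) to 1949 (without PBS 1-1) of all genes. DESeq2 called 13 of the other pathway genes in place of 8, and total-count scaling 6, with 1757 and 1018 of all genes called in place of 1406. The log2 fold change of Igfbp5 turned to -0.020 with total counts only and ran from -0.067 to 0.14 without 1 mouse. The Insr over Igf1r log2 difference turned to 0.00013 with a pseudocount of 5 and ran from -0.14 to 0.11 without 1 mouse; that of Irs2 over Irs1 ran from 0.35 to 0.85. The cause of these shifts was not tested. With total-count scaling Pik3r1 (FDR = 0.148) and Inpp5k (0.0789), and with length offsets Pde3b (0.0548), were no longer called by edgeR's quasi-likelihood test. Igf1, Irs2, Igfbp6, Igf1r and Igfbp3 had as few as 149, 146, 158, 167 and 183 counts in a library, which limits the size of difference that could be seen for them.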
